A study of Mus musculus with 16 samples.

Results

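The killer cell lectin-like receptors are C-type lectin-like membrane proteins, most of them encoded in the natural killer gene complex, and 8 of their genes, Klrg1, Klrb1b, Klrb1c, Klrb1f, Klrk1, Klrd1, Klrc1 and Klrc2, were followed in group 2 innate lymphoid cells (ILC2) of the mouse duodenum. They were taken by gene name, as 8 of the 53465 genes in the table. A further 22 rows carried a Klr name and served as the comparison. ILC2 are tissue-resident lymphocytes that release type 2 cytokines. The 16 RNA-seq libraries held 4 libraries of each of 4 genotypes, and the series title names leukotrienes, IL-25 and IL-33 as the signals studied.

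Alox5 KO mice were Alox5 (-/-) and lacked 5-lipoxygenase, an enzyme of leukotriene synthesis. Il25 KO mice were Il25 (-/-) and lacked the cytokine IL-25. St2 KO mice were St2 (-/-) and lacked the IL-33 receptor, encoded by Il1rl1. WT mice were wild type B6. All 4 groups, WT included, were Il13 smart13/smart13, a reporter allele, and the Il25 KO and St2 KO groups were also Arg1Yarg/Yarg, a reporter at Arg1 that the Alox5 KO and WT groups did not carry. All were untreated C57BL/6 mice kept free of specific pathogens, 6 to 10 weeks old. Whether the libraries of a genotype come from different mice is not in the labels, and p-values then cover only the spread among these libraries, which may in part be technical.

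The total count per library ran from 2086864 to 3216937, so that 3 counts, the limit that a count of 0 allows, stood for 0.933 to 1.44 CPM (counts scaled to a common library size by the column totals). The sample codes fell into 3 sets. TS held libraries 1 and 2 of every genotype, TT held libraries 3 and 4 of Alox5 KO and WT, and TY held libraries 3 and 4 of Il25 KO and St2 KO. By Xist and Ddx3y the TY libraries read as female and all others as male. Alox5 averaged 9.84 ± 3.39 CPM in Alox5 KO libraries and 96.2 ± 32.8 CPM in WT libraries (SD, n = 4 each). Il25 was at 0 in every library and Il1rl1 averaged 173 ± 37.6 CPM in St2 KO libraries and 216 ± 34.7 CPM in WT libraries, so these whole-gene counts do not check either label. The 15 ILC2 marker genes summed to between 7374 and 9281 CPM in every library, and each of the 15 had a count in every library. Some single libraries stood apart in ways that touch the results. WT 2 was highest in Klrk1, Il25 KO 1 in epithelial transcripts (329 CPM summed over 8 markers, against at most 67.4 CPM in any other library) and Il25 KO 3 in macrophage and dendritic cell transcripts (42.8 CPM over 9 markers, against at most 10.2 CPM elsewhere).

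The receptors signal in opposite directions. KLRG1, which binds cadherins, and NKR-P1B (Klrb1b), which binds the lectin-like protein Clr-b (Clec2d), carry inhibitory motifs in their tails. NK1.1 (Klrb1c) and NKR-P1F (Klrb1f) are activating or co-stimulatory, and NKR-P1F binds Clr-g (Clec2i). NKG2D (Klrk1) binds stress-induced ligands such as those of the H60 and RAET1 families and signals through the adaptor DAP10 (Hcst) and, in mice, DAP12 (Tyrobp). CD94 (Klrd1) pairs with inhibitory NKG2A (Klrc1) or activating NKG2C (Klrc2) to bind the class Ib molecule Qa-1 (H2-T23). KLRG1 is in common use as a surface marker of ILC2 in the gut, whereas most of the others are best known from natural killer cells.

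All 8 genes lie on chromosome 6 of GRCm38. Klrg1 (ENSMUSG00000030114) is at 6:122270596-122282882 on the minus strand, 6.53 Mb before Klrb1b (ENSMUSG00000079298; 6:128813706-128826331, minus strand). Klrb1c (6:128778485-128789215) neighbours Klrb1b, and Klrb1f (6:129045901-129057464) lies on the plus strand beyond it. Klrd1 (6:129591782-129598775), Klrk1 (6:129610323-129623864), Klrc2 (6:129647496-129660689) and Klrc1 (6:129666015-129678973) follow.

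RefSeq promoter sequences (GRCm38.p6, 250 bases before to 50 after the start site) were at hand for 6 of the 8 genes. Those of the 3 NKR-P1 genes are shown because these paralogs share sequence and yet differ widely in level. The capitals in Klrb1b (6:128826266-128826565, minus strand) and Klrb1f (6:129045651-129045950, plus strand) mark the longest run of bases the pair share, and the capitals in Klrb1c (6:128788592-128788891, minus strand) mark the longest run it shares with Klrb1b.
Klrb1b: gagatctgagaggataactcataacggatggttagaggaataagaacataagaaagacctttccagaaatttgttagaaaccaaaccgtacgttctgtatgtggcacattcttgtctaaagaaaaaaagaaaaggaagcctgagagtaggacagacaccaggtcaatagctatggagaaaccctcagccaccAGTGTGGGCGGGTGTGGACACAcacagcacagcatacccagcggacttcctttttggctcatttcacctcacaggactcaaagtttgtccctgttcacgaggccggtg
Klrb1f: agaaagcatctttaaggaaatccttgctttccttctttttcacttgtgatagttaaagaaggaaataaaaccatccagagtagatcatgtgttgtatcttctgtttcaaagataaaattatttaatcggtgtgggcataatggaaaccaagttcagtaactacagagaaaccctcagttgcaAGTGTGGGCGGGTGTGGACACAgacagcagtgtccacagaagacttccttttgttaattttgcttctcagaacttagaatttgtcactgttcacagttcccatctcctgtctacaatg
Klrb1c: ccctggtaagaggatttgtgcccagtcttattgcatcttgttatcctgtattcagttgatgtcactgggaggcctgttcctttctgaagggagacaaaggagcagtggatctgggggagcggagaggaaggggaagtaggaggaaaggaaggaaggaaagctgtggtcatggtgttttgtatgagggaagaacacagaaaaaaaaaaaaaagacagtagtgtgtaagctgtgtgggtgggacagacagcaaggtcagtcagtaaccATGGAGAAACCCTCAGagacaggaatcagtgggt
The run shared by Klrb1b and Klrb1f has 22 bases, AGTGTGGGCGGGTGTGGACACA, and starts 58 bases before the Klrb1b start site and 68 bases before that of Klrb1f. Searched on both strands of 32851 promoters of the same length, it was found for 2 genes, these same ones. The run Klrb1c shares with Klrb1b has 16 bases, ATGGAGAAACCCTCAG, and was found for 3 genes, Klrb1a being the other. In Klrb1b it starts 79 bases before the start site, whereas in Klrb1c it lies after the start site. These matches describe the letters only.

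Klrg1 was by far the most abundant receptor transcript. With Klrb1b it made up 98.1% of the 24863 counts on the 30 Klr rows, 80.9% falling on Klrg1 and 17.2% on Klrb1b. Per exon length, Klrg1 stood at 336 ± 42.2 RPKM over the 16 libraries and ranked 33 of the 25978 genes with a count. Klrb1b stood at 45.3 ± 9.55 RPKM (SD, n = 16 for both), 7.42 times lower, and ranked 1585. The level fell away below these: Klrb1f averaged 1.53 RPKM, 29.7 times below Klrb1b, followed by Klrb1c at 0.533 RPKM and Klrk1 at 0.355 RPKM. Klrb1f, Klrb1c and Klrk1 overlapped one another across libraries, and their order was not beyond that spread. Klrc1, Klrd1 and Klrc2 were at the limit of detection, with 5, 2 and 1 counts in all 16 libraries together. The Ly49 receptor rows (Klra), the other large group of the complex, held 5 counts over 14 rows, 12 of them at 0 throughout.

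**Figure D1:**
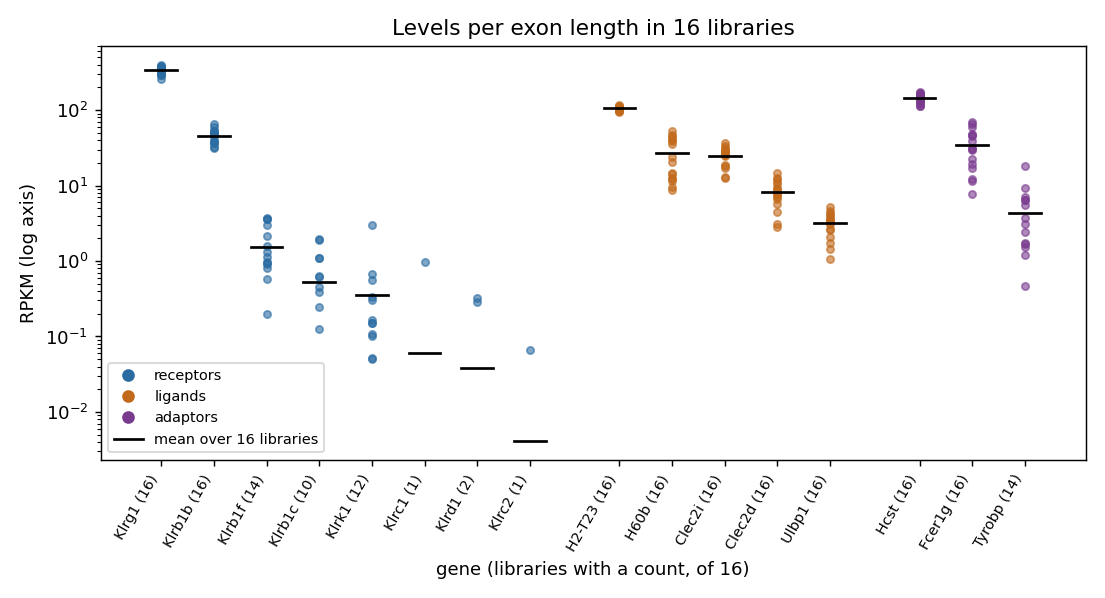
RPKM (log axis) of the 8 receptor genes, 5 ligand genes and 3 adaptor genes; each point is a library with a count, the number of such libraries stands in brackets, and the bar is the mean over 16 libraries, zeros included. Klrg1 and Klrb1b stand at 336 and 45.3 RPKM on average and the other 6 receptors below 2 RPKM.

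For some of these genes, part of the transcript sequence also occurs in paralogs or in an annotated gene that overlaps them. Of the distinct 50-base stretches of the Klrb1b transcripts, 27.2% also occur in transcripts of Klrb1c, Klrb1a or the overlapping annotated gene Gm44511, and 26.9% of Klrb1b exon bases overlap Gm44511. The share was 17.0% for Klrb1c, 38.6% for Klrc1 and 16.3% for Klrc2, and 0 for Klrg1, Klrb1f, Klrk1 and Klrd1. Levels of Klrb1b and Klrb1c are uncertain to that extent, as reads in shared stretches may have been dropped or split.

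Only 3 of the 8 receptors, Klrg1, Klrb1b and Klrb1f, had enough counts for the test across genotypes. They were tested with edgeR's quasi-likelihood test over 11742 genes, with genotype and code set in the model and Benjamini-Hochberg adjusted p-values. Klrb1b differed among the 4 genotypes (adjusted p = 0.0293), while 1.17% of all tested genes did. Klrg1 did not pass that test (adjusted p = 0.203), nor did Klrb1f (adjusted p = 0.835). Klrb1b no longer passed in 8 of the 16 fits that each left out 1 library, namely those without Alox5 KO 1, Alox5 KO 2, Il25 KO 2, St2 KO 1, St2 KO 2, WT 2, WT 3 or WT 4.

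Klrb1b, the inhibitory NKR-P1B receptor, was lower in Il25 KO ILC2. It had 82.9, 73.0, 81.9 and 107 CPM in Il25 KO libraries 1 to 4, against 114, 145, 103 and 106 CPM in WT libraries 1 to 4. Of the 4 Il25 KO libraries, 3 lay below every WT library, and Il25 KO 4 lay among the lower WT libraries. Klrb1b fell by 0.81 ± 0.157 on the log2 scale in Il25 KO against WT (adjusted p = 0.0223), the only one of the 3 tested receptors to pass in that comparison, where 0.417% of all tested genes passed and 0.281% passed as lower. Fewer cells with the transcript and less transcript per cell cannot be told apart in such bulk libraries.

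The size of that difference depended on the code sets. Il25 KO and WT meet only in set TS, where Klrb1b had 82.9 and 73.0 CPM in Il25 KO against 114 and 145 CPM in WT. Within TS alone the log2 fold change was -0.70 ± 0.185 (adjusted p = 0.511), and without a code-set term it was -0.41 ± 0.179 (adjusted p = 0.378). The call was also lost when Il25 KO 2 was left out (adjusted p = 0.0691) or WT 2 was left out (adjusted p = 0.213), with log2 fold changes of -0.82 and -0.73. Leaving out together WT 2, Il25 KO 1 and Il25 KO 3, the libraries highest in Klrk1, epithelial or myeloid transcripts, gave -0.73 ± 0.207 (adjusted p = 0.335). The fold change was negative under all 29 alternatives run.

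In St2 KO libraries Klrb1b had 70.1, 84.6, 106 and 118 CPM, against 114, 145, 103 and 106 CPM in WT libraries. The pair of TS libraries of St2 KO lay below all WT libraries and the TY pair among them. The log2 fold change of St2 KO against WT was -0.74 ± 0.155, close to that of Il25 KO, but it lay just outside the threshold (adjusted p = 0.0525). None of the 3 tested receptors passed in this comparison with edgeR, in which 0.298% of all genes passed. Of the 3, Klrg1 and Klrb1b had an unadjusted p under 0.05, as had 880 of all 11742 genes. DESeq2 called 1, Klrb1b (adjusted p = 0.00555). Over the alternatives run, DESeq2 among them, 18 to 67 of all genes were called in this comparison. Klrb1b also came inside the threshold without Il25 KO 3 (adjusted p = 0.0319), without WT 1 (adjusted p = 0.0493) and with library sizes taken over all genes (adjusted p = 0.04998). Without a code-set term its value was -0.32 ± 0.175 (adjusted p = 0.541). Against each other, Il25 KO and St2 KO differed by -0.08 ± 0.130 in Klrb1b (adjusted p = 0.885), and both comparisons with WT share the same 4 WT libraries. Since Il25 KO and St2 KO carry the Yarg allele and WT lacks it, the deletions and that allele cannot be told apart for Klrb1b.

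In Alox5 KO libraries Klrb1b had 117, 131, 81.3 and 93.4 CPM, a spread that covers most of the WT range. The log2 fold change was -0.14 ± 0.127 against WT (adjusted p = 0.837). The TS libraries of Alox5 KO were the higher pair and the TT libraries the lower, but the difference in effect between the sets was 0.19 ± 0.261 and did not pass (adjusted p = 0.99997). None of the 3 tested receptors passed in Alox5 KO against WT with edgeR, where 0.102% of all genes did; none had an unadjusted p under 0.05 and DESeq2 called 0.

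**Figure D2:**
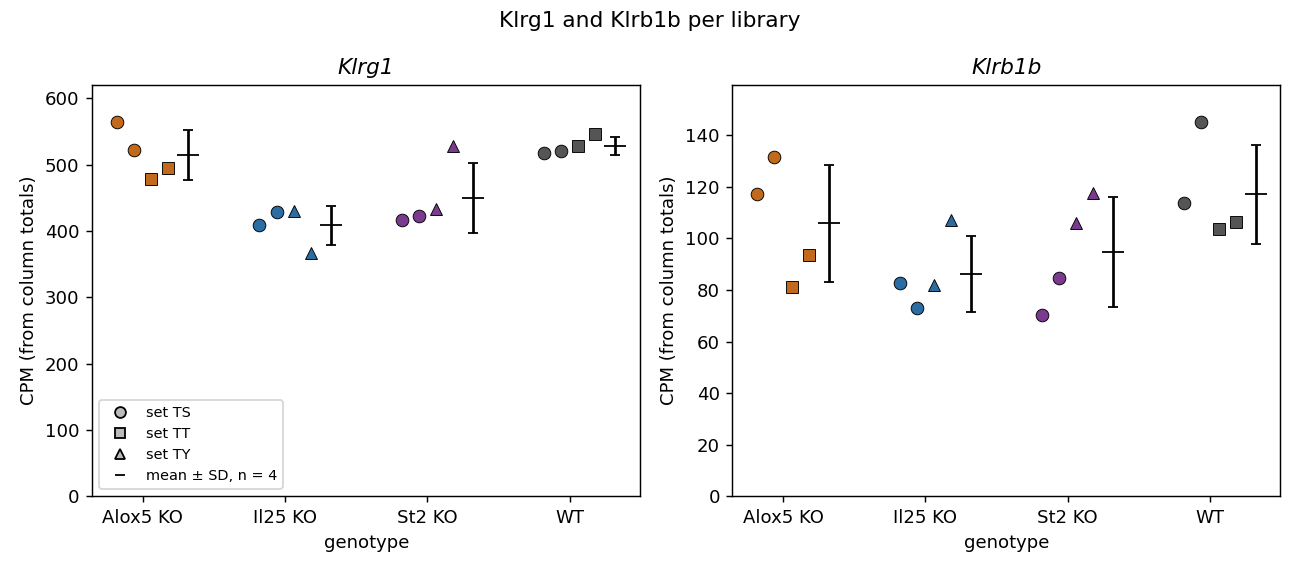
CPM of Klrg1 (left) and Klrb1b (right) in each of the 16 libraries by genotype; the point shape gives the code set, and the bar with whiskers is the mean ± SD of 4 libraries. All 4 Il25 KO libraries lie below all 4 WT libraries in Klrg1, and 3 of 4 do in Klrb1b.

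Klrg1, the inhibitory cadherin receptor, was high in every library. The labels name no sort gate, so it is not known whether KLRG1 protein was used to select the cells. It had 409, 428, 430 and 366 CPM in Il25 KO libraries, against 518, 520, 528 and 546 CPM in WT libraries, and the groups did not overlap. The log2 fold change was -0.40 ± 0.106, which did not pass (adjusted p = 0.173). Of all 11742 tested genes, 4.23% had every Il25 KO library below every WT library. Over the 29 alternatives the value ran from -0.48 to -0.28 with adjusted p-values of 0.0626 to 0.755, so that none made it a call.

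In St2 KO libraries Klrg1 had 417, 422, 432 and 528 CPM. Of these, 3 lay below every WT library and St2 KO 4, at 528 CPM, lay within the WT range. The log2 fold change against WT was -0.30 ± 0.106 (adjusted p = 0.459). Il25 KO and St2 KO differed by -0.09 ± 0.087 in Klrg1 (adjusted p = 0.772). None of the 3 tested receptors passed in Il25 KO against St2 KO with edgeR, where 1.24% of all genes did; none had an unadjusted p under 0.05 and DESeq2 called 0.

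Klrg1 had 564, 521, 478 and 495 CPM in Alox5 KO libraries, around the WT levels, with a log2 fold change of -0.03 ± 0.086 (adjusted p = 0.954). This value is near 0 and turned positive in 3 alternatives. The 4 WT libraries of Klrg1 were close to one another, with a coefficient of variation of 2.47%, against a counting error of 2.71% at their depth. The coefficient of variation was 7.26% in Alox5 KO, 7.24% in Il25 KO and 11.7% in St2 KO, and for Klrb1b it lay between 16.3% in WT and 22.5% in St2 KO, with counting errors of at most 6.57%. The counting errors and floors given here cover counting error only, since amplified reads are not independent molecules, whereas the SD and SE also carry the spread between libraries.

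**Figure D3:**
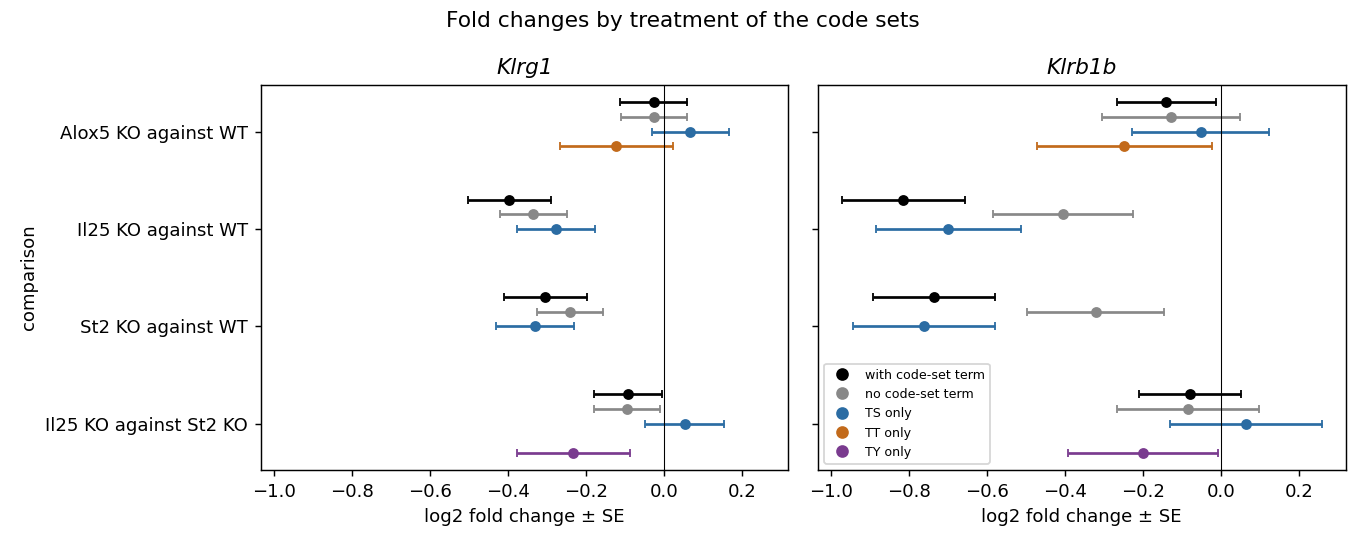
Log2 fold changes ± SE of Klrg1 (left) and Klrb1b (right) in 4 comparisons, from fits with and without the code-set term and within single sets. Klrb1b in Il25 KO against WT is -0.81 with the code-set term, -0.41 without it and -0.70 in TS alone.

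The effect of a genotype on Klrg1 also did not differ detectably between sets. The Il25 KO against St2 KO difference in Klrg1 was 0.28 ± 0.167 higher in TS than in TY (adjusted p = 0.9999), and that of Alox5 KO against WT was 0.19 ± 0.165 higher in TS than in TT (adjusted p = 0.99997). Across the 2 tests of this kind no gene passed with edgeR (0% of 11742), while 572 genes between TS and TY and 474 between TS and TT had an unadjusted p under 0.05 and DESeq2 called 1 and 3. None of the 3 receptors had an unadjusted p under 0.05 in either, and DESeq2 called 0 of them. TY differs from the other sets in sex, so set and sex cannot be told apart in Il25 KO and St2 KO.

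Klrg1 and Klrb1b varied together to a moderate degree. This was the 1 relation between receptors that was tested, and its p-values were not adjusted. Over the 16 libraries Pearson's r of their log2 CPM was 0.583 (2-sided permutation p = 0.0193) and Spearman's rho was 0.544 (2-sided permutation p = 0.0324), in libraries that share genotypes and code sets. Within TS r was 0.873 (exact permutation p = 0.0226) and rho was 0.619 (exact permutation p = 0.115), with n = 8. Without Il25 KO 4 and Il25 KO 1, the libraries farthest from the median of Klrg1, it was 0.750. After genotype means were taken out r was 0.309 and rho was 0.247, and neither was tested. The permutations took no account of genotype or code set, so their p-values do not separate this relation from differences between groups. The protein-coding genes whose log2 CPM followed Klrg1 most closely over 16 libraries, among 9392 compared, were Psma4 (r = 0.863), a proteasome subunit, Abracl (r = 0.833) and Blvrb (r = 0.828), a biliverdin reductase. For Klrb1b they were Ppp3cc (r = 0.790), a catalytic subunit of calcineurin, Rmi1 (r = 0.775) and Ube2l3 (r = 0.773), a ubiquitin-conjugating enzyme. For Klrb1f, with 137 counts in all, they were Gab3 (r = 0.833), R3hcc1l (r = 0.828) and Glcci1 (r = 0.824), among 9393 compared. The genes in these lists were picked as the highest of all those compared over 16 libraries, and their r values were not tested. Values picked in this way can be high without any relation, so the lists are description only and no relation to the receptors is drawn from them.

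Klrb1f, the co-stimulatory NKR-P1F receptor, was sparse but present in 14 of 16 libraries. It had 3.19, 1.93, 1.98 and 0 CPM in Alox5 KO libraries, 7.21, 0, 0.407 and 6.11 CPM in Il25 KO libraries, 7.42, 1.87, 4.38 and 7.23 CPM in St2 KO libraries and 2.32, 1.16, 2.63 and 1.63 CPM in WT libraries. The Il25 KO libraries fell at both ends of the whole range. St2 KO had the highest mean, 5.22 ± 2.63 CPM, against 1.94 ± 0.666 CPM in WT (SD, n = 4 each), but their ranges overlapped and the log2 fold change of 1.11 ± 0.92 did not pass (adjusted p = 0.840). It was 0.61 ± 0.989 in Il25 KO (adjusted p = 0.923) and -0.07 ± 0.985 in Alox5 KO (adjusted p = 0.989) against WT.

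Klrb1c, which encodes the activating receptor NK1.1, had 68 counts in all. It had 5.57, 0, 0 and 0 CPM in Alox5 KO libraries, 1.80, 0.367, 3.26 and 0.718 CPM in Il25 KO libraries, 1.35, 0, 3.29 and 5.85 CPM in St2 KO libraries and 0, 1.16, 1.88 and 0 CPM in WT libraries. All groups overlapped, and the gene did not reach the count filter.

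Klrk1, encoding NKG2D, was concentrated in one WT library. It had 0, 0.773, 1.19 and 0 CPM in Alox5 KO libraries, 1.08, 0.367, 4.07 and 0.718 CPM in Il25 KO libraries, 0, 2.18, 1.10 and 2.41 CPM in St2 KO libraries and 0, 21.6, 0.376 and 4.90 CPM in WT libraries. WT 2 held 56 of the 107 counts, or 52.3%. Tested without the count filter, its log2 fold changes against WT were -3.61 ± 1.16 in Alox5 KO, -3.35 ± 1.13 in Il25 KO and -3.43 ± 1.10 in St2 KO, with adjusted p-values of 0.709, 0.460 and 0.672.

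The same library carried other transcripts of this kind. All 5 counts of Klrc1 (NKG2A) and the 1 count of Klrc2 (NKG2C) were in WT 2, as were 29 of the 81 counts of Klrb1, another NKR-P1 family gene, at 11.2 CPM there against at most 5.29 CPM elsewhere. WT 2 also held 95 of 114 counts of Il22, a cytokine gene of group 3 innate lymphoid cells (36.6 CPM), and 13 of 28 counts of Sh2d1b1, an adaptor gene of natural killer cells. Eomes, a defining factor of natural killer cells, had 1 count in WT 2 and 2 counts in the other 15 libraries, and Ncr1, the natural cytotoxicity receptor, stood at 32.4 CPM in WT 2 within a range of 3.30 to 47.0 CPM elsewhere. The 6 ILC3 markers, Il22 and Ncr1 among them, summed to 118 CPM in WT 2 and to between 41.2 and 97.4 CPM in the other libraries, and the excess of WT 2 over the highest of these was smaller than its Il22 level. The part of other cells in the Klrk1 signal was not tested.

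Klrd1, encoding CD94, had 1 count in Il25 KO 2 and 1 count in WT 4. Over the 4 libraries of a genotype, 3 counts stand for 0.309 CPM in Alox5 KO and 0.254 CPM in St2 KO, where none was seen, so Klrd1 was not detectable at this depth there. The natural killer and ILC1 marker list as a whole, 13 genes, summed to between 1412 and 1719 CPM in Alox5 KO libraries, 1189 and 1517 CPM in Il25 KO libraries, 1076 and 1314 CPM in St2 KO libraries and 1391 and 1504 CPM in WT libraries. Most of that sum came from genes that T cells also express, namely the granzyme gene Gzma, Nkg7 and Cd160, at 493, 371 and 299 CPM on average. The summed level was lower in all St2 KO libraries than in all WT libraries. Taken singly, 4.84% of all tested genes lay lower in this way. Of the list's genes, 11 were tested in St2 KO against WT and none was called by edgeR or DESeq2. An unadjusted p under 0.05 was found for 2 of the 11, and their median log2 fold change was -0.21. The B and plasma cell, immediate early and lectin-like sums also did not overlap. The ILC2, ILC3, T cell, myeloid, mast cell, epithelial, ligand and adaptor sums did. The 8 B and plasma cell markers summed to 323 to 814 CPM in St2 KO libraries and 923 to 1124 CPM in WT libraries. Of these, 7 were tested, all below 0 in log2 fold change. Their median was -1.25, against 0.01 over all tested genes. Of the 7, edgeR and DESeq2 called 0, and 2 had an unadjusted p under 0.05. The 12 immediate early and dissociation genes summed to between 3591 and 4087 CPM in St2 KO libraries and 4951 and 5674 CPM in WT libraries. The 15 listed lectin-like genes included Cd69 and the Clec2 genes. They summed to 180 to 325 CPM in St2 KO libraries and 376 to 428 CPM in WT libraries. The part of all these lists in the values of Klrb1b and Klrg1 was not tested.

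**Figure D4:**
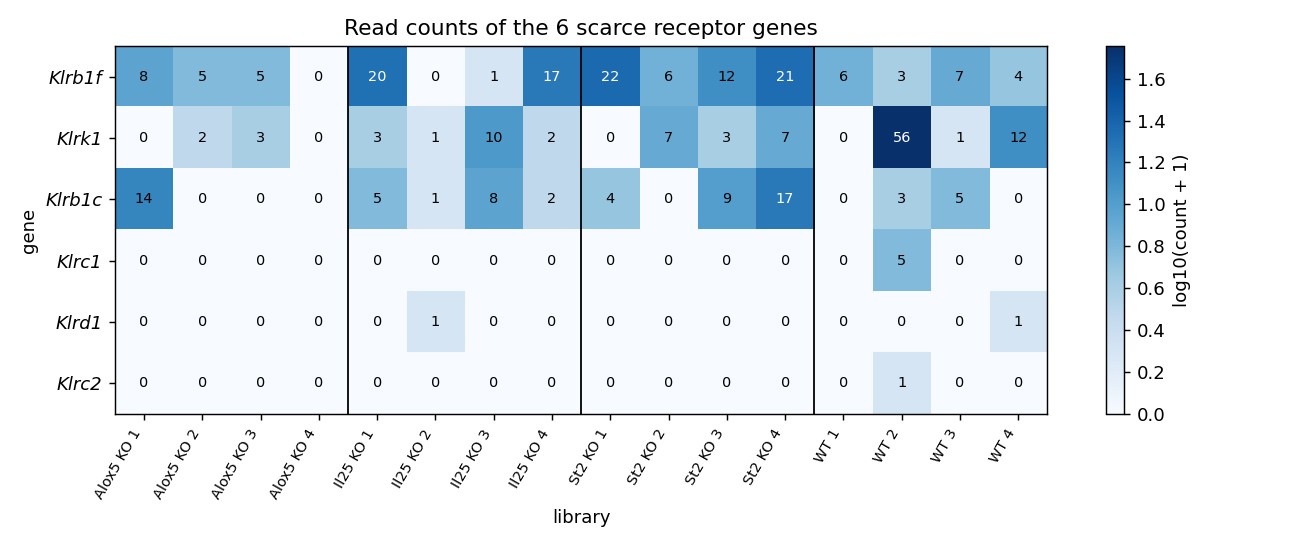
Read counts of the 6 scarce receptor genes (rows) in each library (columns, grouped by genotype); the colour is log10(count + 1). WT 2 holds 56 of the 107 Klrk1 counts and all 5 Klrc1 counts, while Klrb1f is present in 14 libraries.

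The deletion in Alox5 KO mice lies on the same chromosome as the receptors, 5.81 Mb from Klrg1 and 12.4 Mb from Klrb1b. Between Alox5 and the end of Klrc1, 94 genes were tested and 1, Wnt5b, passed in Alox5 KO against WT. Of all 11742 tested genes, 12 passed in this comparison, or 0.102%. The median log2 fold change was -0.05 over the 94 against 0.01 over all genes.

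Genes of the receptors' ligands were measured in the same libraries. Of 14 listed ligand genes, 5 were tested. Against WT, 0.417% of all tested genes were called in Il25 KO and 0.298% in St2 KO. Of the 5 ligand genes 1 was called, H60b, encoding a ligand of NKG2D, which was higher in both Il25 KO and St2 KO. It had 42.5, 64.2, 57.0 and 55.3 CPM in Il25 KO libraries and 46.5, 28.9, 48.9 and 52.3 CPM in St2 KO libraries, against 14.7, 15.4, 17.3 and 13.9 CPM in WT libraries, and neither overlapped WT; 2.55% of all tested genes had every Il25 KO library, and 3.63% every St2 KO library, above every WT library. H60b rose by 2.00 ± 0.325 in Il25 KO (adjusted p = 0.00443) and by 1.64 ± 0.333 in St2 KO (adjusted p = 0.0410), both on the log2 scale against the same WT libraries. It had 11.5, 10.4, 24.6 and 17.7 CPM in Alox5 KO libraries (0.07 ± 0.334, adjusted p = 0.967). Il25 KO and St2 KO differed by 0.37 ± 0.199 (adjusted p = 0.534).

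The Il25 KO call of H60b held in each of the 16 fits without 1 library, and the St2 KO call was lost in 13 of them (adjusted p = 0.0571 to 0.184), in all except those without Il25 KO 1, Il25 KO 2 or St2 KO 2. Within TS alone the values were 1.85 ± 0.398 in Il25 KO (adjusted p = 0.309) and 1.29 ± 0.419 in St2 KO (adjusted p = 0.511). H60b is on chromosome 10, 2.63 Mb from Arg1, and both genotypes also carry the Yarg allele at Arg1, so the deletions and that allele cannot be told apart here. H60c, a paralog, had 21 counts in Il25 KO and 15 counts in St2 KO libraries and 0 in the 8 Alox5 KO and WT libraries. H60b lies inside the annotated span of Raet1e, which had 0 counts.

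Transcripts of the NKR-P1 ligand genes were counted in the same libraries, and which cells they came from was not tested. Clec2i, encoding Clr-g, averaged 25.0 RPKM, 16.4 times the level of its receptor gene Klrb1f, while Clec2d, encoding Clr-b, averaged 8.25 RPKM, 5.49 times below its receptor gene Klrb1b. Clec2i had 87.9, 40.7, 39.5 and 81.9 CPM in Il25 KO libraries and 79.9, 77.4, 57.0 and 80.5 CPM in St2 KO libraries, all below the 105, 88.7, 89.2 and 98.1 CPM of WT libraries. The Alox5 KO libraries, at 114, 53.7, 91.2 and 58.9 CPM, lay on both sides. Neither log2 fold change passed, at -0.55 ± 0.295 in Il25 KO (adjusted p = 0.602) and -0.36 ± 0.285 in St2 KO (adjusted p = 0.827). Groups that do not overlap in this direction made up 4.23% and 4.84% of all tested genes.

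Clec2d had 3.71, 9.01, 5.48 and 3.44 CPM in St2 KO libraries, against 8.11, 14.7, 10.2 and 17.6 CPM in WT libraries, and its log2 fold change of -1.02 ± 0.468 did not pass (adjusted p = 0.635). H2-T23, whose product Qa-1 is the ligand of the CD94 receptors, had 275 to 341 CPM across the series. Its log2 fold change against WT was -0.21 ± 0.088 in St2 KO and did not pass (adjusted p = 0.605). It was -0.09 ± 0.089 in Il25 KO (adjusted p = 0.851) and 0.02 ± 0.073 in Alox5 KO (adjusted p = 0.947). The epithelial cadherin gene Cdh1, a KLRG1 ligand, had 45 counts in 5 libraries and was not tested. Cd69, a lectin-like gene of the same complex and an activation marker, fell by 1.16 ± 0.218 on the log2 scale in St2 KO against WT (adjusted p = 0.0199) and was higher by 1.23 ± 0.177 in Il25 KO against St2 KO (adjusted p = 0.000599). The first of these calls was lost without St2 KO 1, St2 KO 2, WT 1 or WT 2 (adjusted p = 0.0959 to 0.168), and the second in TY alone (0.85 ± 0.247, adjusted p = 0.348). Of the 12 immediate early and dissociation genes, 10 moved the same way in both comparisons. The other 2, Hspa1a and Hspa1b, had log2 fold changes of 1.43 and 0.82 in St2 KO against WT. In Il25 KO against St2 KO they had -1.39 and -0.06, and none of these values was called. Among the 12 genes, edgeR called 3 lower in St2 KO against WT, namely Fosb, Btg2 and Nr4a1, where 0.298% of all tested genes were called. It called 9 of the 12 higher in Il25 KO against St2 KO, where 1.24% of all tested genes were called. The part of the immediate early and dissociation genes in the Cd69 values was not tested.

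**Figure D5:**
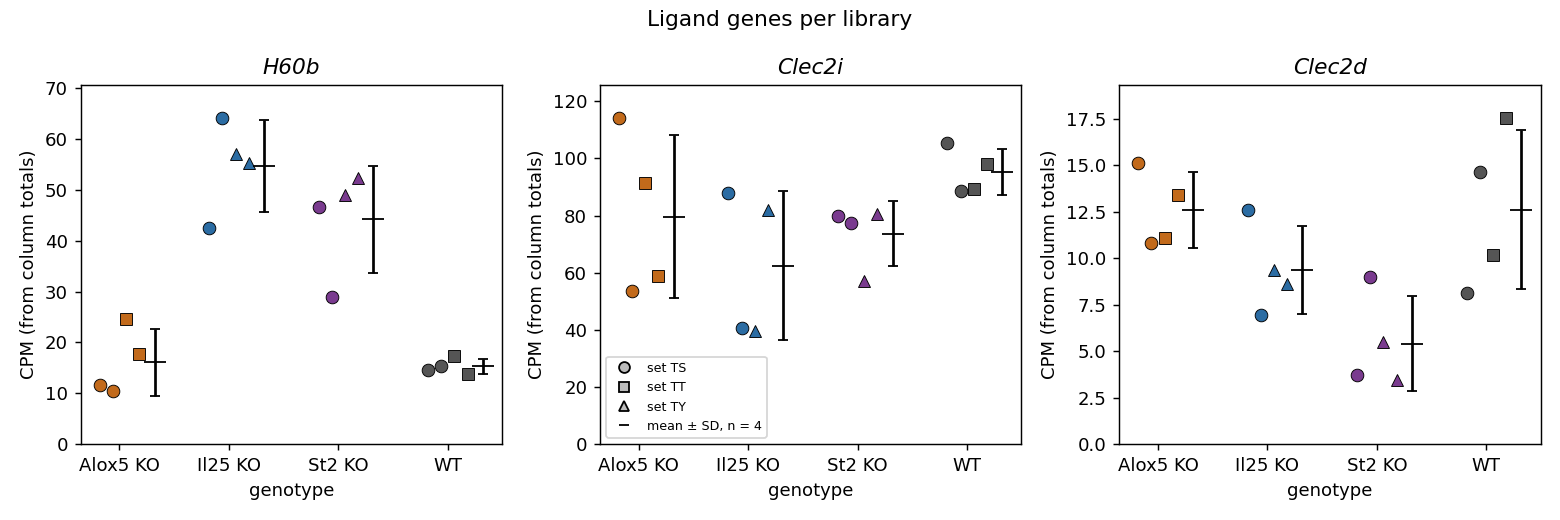
CPM of H60b, Clec2i and Clec2d in each library by genotype; the point shape gives the code set, and the bar with whiskers is the mean ± SD of 4 libraries. H60b lies at 28.9 to 64.2 CPM in Il25 KO and St2 KO libraries, against 13.9 to 17.3 CPM in WT libraries.

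The signalling genes behind the receptors showed no called change. Of 18 listed adaptors, kinases and phosphatases, 16 were tested and edgeR called 0 in each of the 4 comparisons, as did DESeq2. At an unadjusted p under 0.05 there were 2 in Alox5 KO, 4 in Il25 KO and 4 in St2 KO, each against WT, and 2 between Il25 KO and St2 KO, where 842, 1092, 880 and 1321 of all 11742 genes were under it. Hcst, the DAP10 adaptor of NKG2D, was abundant at 143 RPKM on average, although its receptor gene Klrk1 averaged 0.355 RPKM. Tyrobp, the DAP12 adaptor, averaged 4.27 RPKM, 33.4 times below Hcst. Fcer1g, the Fc receptor gamma chain with which activating NKR-P1 receptors pair, averaged 34.7 RPKM. Ptpn6, encoding the phosphatase SHP-1 that inhibitory tails recruit, averaged 182 ± 18.5 CPM in Il25 KO libraries and 261 ± 30.4 CPM in WT libraries (SD, n = 4 each), without overlap, as in 4.23% of all tested genes, and its log2 fold change of -0.56 ± 0.186 did not pass (adjusted p = 0.299). It was -0.34 ± 0.151 in Alox5 KO (adjusted p = 0.658) and -0.40 ± 0.184 in St2 KO (adjusted p = 0.642) against the same WT libraries.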

How the data were processed

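RNA was measured in ILC2 sorted from the duodenum. Per the labels' protocols, the proximal gut was digested with an enzyme blend (Liberase TM), lymphocytes were taken from a Percoll step and sorted, and Nextera XT libraries were made, which do not mark strand, so that genes which overlap may share reads. The deposited values were raw counts of reads for each gene, in 1 table. Tools named in the submitters' processing notes were FastQC 0.11.3, Picard 1.134, HTSeq 0.4.1 and STAR 2.4.2a, with the build GRCm38 and no settings. Of 53471 rows, 6 with a repeated identifier were dropped. Totals were 2086864 to 3216937 per library, and no 2 libraries of a genotype agreed within sampling noise.

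CPM were computed from column totals, and RPKM from union exon lengths of GENCODE M21. Counts were tested with edgeR 4.0.16 (R 4.3.3): TMM scaling, default expression filter over genotype (11742 genes), robust quasi-likelihood F test, terms for genotype and code set, 10 residual degrees of freedom, Benjamini-Hochberg adjustment over all tested genes and a threshold of 0.05. The standard error is the log2 fold change divided by the square root of F. The procedure was tested on simulated data.

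All 8 receptors were described by rule. From each gene list the called genes and a few of the most abundant others were named, and the 3 genes most correlated with each tested receptor, among genes whose average log2 CPM was 3 or more, were listed; these, and Raet1e, Cdh1, Wnt5b, Il22, Sh2d1b1 and Eomes, were taken where a value turned on them. The receptors and lists were chosen with earlier results of these data known. Of all identifiers, 99.6% matched the annotation. Promoters came from RefSeq. Replicate numbers did not pair libraries. Alternatives were other scalings, no filter, edgeR's legacy mode, DESeq2 1.42.0, no code-set term, replicate blocks, single code sets, only the compared groups and each library left out. Another 3 were chosen after seeing the data: 2 sets of 3 libraries left out, and library sizes over all genes.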

Additional observations from a re-analysis of the deposited data

Results flagged for a closer look

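Groups of 4 libraries were examined where the highest library had at least 10 counts of a receptor, ligand or adaptor gene or of Cd69. Of 37 such groups, 3 had 1 library far from the other 3. Chance gives about 1 in 20 such groups for normally spread values, a rate that need not hold for low counts with zeros. St2 KO 4 had 528 CPM of Klrg1, against 417 to 432 CPM in the other St2 KO libraries. Alox5 KO 1 had 5.57 CPM of Klrb1c, which was at 0 in the other 3 Alox5 KO libraries. St2 KO 3 had 57.0 CPM of Clec2i, against 77.4 to 80.5 CPM in the other St2 KO libraries.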

How the results depend on the processing

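The call of Klrb1b among the 4 genotypes (1 receptor) dropped to 0 with no filter on low counts, with no code-set term, with the replicate block in place of the code-set term, in TS alone and without either of 2 trios of libraries, chosen after seeing the data (WT 2, Il25 KO 1 and Il25 KO 3, highest in Klrk1, epithelial or myeloid transcripts, and Alox5 KO 1, Alox5 KO 2 and St2 KO 1, lowest in plasma cell transcripts); single omissions gave 0 to 1. Its call in Il25 KO against WT (1) dropped to 0 with no code-set term, with the replicate block in place of it (-0.41, adjusted p = 0.372), in TS alone, with only the 2 groups compared (-0.70, adjusted p = 0.441) and without either trio (-0.73, adjusted p = 0.335 and 0.183); single omissions gave 0 to 1. In St2 KO against WT, 1 receptor, Klrb1b, was called with DESeq2, with library sizes over all genes and with the replicate block added to the code-set term (-0.73, adjusted p = 0.0455); single omissions gave 0 to 1. Same-numbered libraries correlated by -0.04 to 0.20, with 2 of 16 pairs over 0.1, so the numbers were not read as pairs. No receptor was called in Alox5 KO against WT, Il25 KO against St2 KO or the tests between sets under any alternative run. Values near 0 changed sign: Klrg1 in Alox5 KO to 0.068 in TS alone, and it ran from -0.060 to 0.015 over single omissions, being positive without Alox5 KO 3 (0.015) and WT 4 (0.0031); Klrb1f in Alox5 KO, from -0.44 to 0.28 over single omissions, to 0.55 in TS alone, 0.28 without Alox5 KO 4 and 0.23 without WT 3; Klrb1f in Il25 KO, from -0.48 to 1.21 over single omissions, to -0.48 without Il25 KO 1 and -0.44 without the first trio; and in Il25 KO against St2 KO, Klrg1 to 0.054 and Klrb1b to 0.063 in TS alone, and Klrb1b, from -0.14 to 0.015 over single omissions, to 0.015 without Il25 KO 3. The H60b call was lost in 3 of 29 alternatives in Il25 KO, namely TS alone, only the 2 groups (adjusted p = 0.142) and without the second trio (0.0693). In St2 KO it was lost in 19 of 29, among them no filter (adjusted p = 0.0599), the replicate block added (0.0764), only the 2 groups (0.288) and without either trio (0.175 and 0.550). The Cd69 call in St2 KO was also lost without either trio (adjusted p = 0.227 and 0.161). Genes called over all alternatives ran from 3 to 52 in Alox5 KO, 9 to 98 in Il25 KO and 18 to 67 in St2 KO, each against WT, from 29 to 246 in Il25 KO against St2 KO and from 43 to 299 among the 4 genotypes, against 12, 49, 35, 146 and 137 as reported. The cause of these shifts was not tested. Depth limits Klrb1c, Klrk1, Klrd1, Klrc1 and Klrc2, whose counts were too low for the filter.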

Other observations

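Klrg2, a Klr-named gene that lies apart from the natural killer complex at 6:38625693-38637242, had 52 counts over the 16 libraries. Beside the Clec2 genes and Cd69, the lectin-like genes of the same region that are known from myeloid cells were close to absent, with 33 of 34 counts of Clec12a and all 7 counts of Clec9a in Il25 KO 3, the library highest in macrophage and dendritic cell transcripts.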
